A study of Mus musculus with 4 samples.

Results

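The milk protein and secretory genes are 10 genes of the secretory (alveolar) program of the mammary gland. They were chosen by symbol, with earlier results of these data known. They are the caseins *Csn1s1*, *Csn1s2a*, *Csn2* and *Csn3*, the whey proteins *Lalba* and *Wap*, *Glycam1*, *Btn1a1*, and the iron-binding proteins *Trf* and *Ltf*. All 10 were found among the 28693 features of the count matrices. The study compared mammary glands of mice with floxed *Lats1* and *Lats2*, the kinases of the Hippo pathway that restrain YAP and TAZ, with and without a tamoxifen-inducible Cre under the *Krt8* promoter. All 4 mice carried Lats1f/f;Lats2f/f and an R26-lsl-EYFP reporter and received 2 mg tamoxifen on each of 5 days, and live cells of the gland were taken 7 days after the last dose. The 2 mice labelled WT had no Cre, so they are floxed and tamoxifen-treated, and were heterozygous for the reporter. The 2 mice labelled LATS1/2 KO carried Krt8-CreERT2 in addition, and replicate 1 was heterozygous and replicate 2 homozygous for the reporter. Cre under *Krt8* acts in luminal cells of both lineages and only where tamoxifen induced it, so a KO library also holds cells without recombination.

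Caseins are the main proteins of milk and are secreted in micelles, with κ-casein (*Csn3*) keeping the micelle in solution. α-Lactalbumin (*Lalba*) turns galactosyltransferase into lactose synthase, and butyrophilin (*Btn1a1*) sits in the membrane that coats secreted milk fat. Prolactin, acting through its receptor and the transcription factor STAT5, drives this program in alveolar cells, which descend from the luminal ER-negative lineage. In the nulliparous gland that lineage holds progenitors that carry a low level of some of these transcripts, while hormone-sensing luminal cells and contractile basal cells are not milk producers.

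The 4 casein genes lay in 1 cluster on chromosome 5 (GRCm38, positions 87666208 to 87932665, a span of 266 kb). *Trf* and *Ltf* lay on chromosome 9, *Wap* on chromosome 11, *Btn1a1* on chromosome 13, and *Lalba* and *Glycam1* on chromosome 15. Promoter sequence from RefSeq (GRCm38.p6) was found for 7 of the 10 genes, and was searched over the 250 bases before the start for TTCNNNGAA, the palindromic letters of a STAT5-type site, which reads the same on both strands. A match was found in 3 of the 7, *Csn1s1*, *Csn2* and *Glycam1*, while 7.02% of 32851 promoters held one, and *Csn1s2a*, *Lalba*, *Ltf* and *Wap* had none in this window. A match is a description of the letters and not a site of binding. The 160 bases before the start are shown for the 2 caseins with a match and for *Csn1s2a* and *Lalba* without one. A link between a match and the change of a gene was not tested. The sequences run 5′ to 3′ on the gene's strand and the capitals mark the match: *Csn1s1* (chr5:87666048-87666207, plus strand), *Csn2* (chr5:87699426-87699585, minus strand), *Csn1s2a* (chr5:87774290-87774449, plus strand) and *Lalba* (chr15:98482684-98482843, minus strand).
Csn1s1: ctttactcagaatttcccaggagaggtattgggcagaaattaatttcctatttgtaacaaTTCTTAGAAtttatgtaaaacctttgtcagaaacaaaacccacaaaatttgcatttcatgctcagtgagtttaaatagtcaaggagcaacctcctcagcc
Csn2: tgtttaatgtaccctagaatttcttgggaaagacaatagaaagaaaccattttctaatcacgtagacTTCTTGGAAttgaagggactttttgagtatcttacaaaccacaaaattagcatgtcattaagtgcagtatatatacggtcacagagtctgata
Csn1s2a: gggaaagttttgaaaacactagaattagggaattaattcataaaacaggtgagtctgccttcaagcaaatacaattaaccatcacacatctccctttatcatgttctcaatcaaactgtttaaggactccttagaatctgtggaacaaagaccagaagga
Lalba: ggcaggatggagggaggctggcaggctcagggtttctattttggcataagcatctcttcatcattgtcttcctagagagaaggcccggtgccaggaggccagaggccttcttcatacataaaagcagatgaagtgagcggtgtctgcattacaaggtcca

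Values are UMI counts, 1 per captured molecule, counted from the 3′ end, so that a level does not grow with gene length. A level is given as CPM, UMIs of the gene per 1000000 UMIs of the cells summed. Of 20324 barcodes, 18200 with over 500 genes and under 20% mitochondrial UMIs were kept, 3515 to 5272 per library with 38792520 to 46810771 UMIs, and 43 barcodes occurred in over 1 library. Each cell was gated by marker genes of its lineage, none of them a milk gene, into luminal ER-negative (8955 cells), hormone-sensing (2836) and basal (921) epithelium. Another 1806 epithelial cells met no gate, 283 of them in WT and 1523 in LATS1/2 KO. A further 1359 cells stood between epithelium and other types by their markers and were left out. The lead that a gate had to have kept out cells with similar scores for more than 1 lineage, and no doublet caller was run. Cells of 1 mouse are not independent, so counts were summed per library, and tests compare 2 mice with 2. The labels name no batch. *Lats1*, a target of the deletion, stood at 25.6 and 25.5 CPM in WT and at 15.1 and 18.0 in LATS1/2 KO in the luminal ER-negative gate, and *Lats2* at 15.2 and 16.9 against 27.6 and 29.7. The sources used here do not say which exons are deleted, so 3′ tags do not check the deletion.

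In WT mice the milk genes stood highest in luminal ER-negative cells, with *Glycam1* as the exception. *Csn3* was the highest, at 2239 and 3809 CPM in replicates 1 and 2, with *Trf* (serum transferrin, also secreted into milk) next at 1431 and 1886. *Ltf* (lactoferrin, an antimicrobial iron chelator) followed with 376 and 725 CPM and *Btn1a1* with 258 and 255. For these 4 genes the WT libraries of neighbouring genes did not overlap in level. *Lalba* (14.7 and 36.1 CPM), *Csn1s1* (19.5 and 10.8) and *Csn2* (16.2 and 14.2) overlapped each other and cannot be ordered. *Csn1s2a* was lower, at 4.40 and 2.85 CPM. *Wap*, a whey acidic protein made late in pregnancy, had 6 and 8 UMIs in all, and *Glycam1* 32 and 0. The 10 genes together made up 0.436% and 0.674% of the UMIs of WT luminal ER-negative cells.

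**Figure D1:**
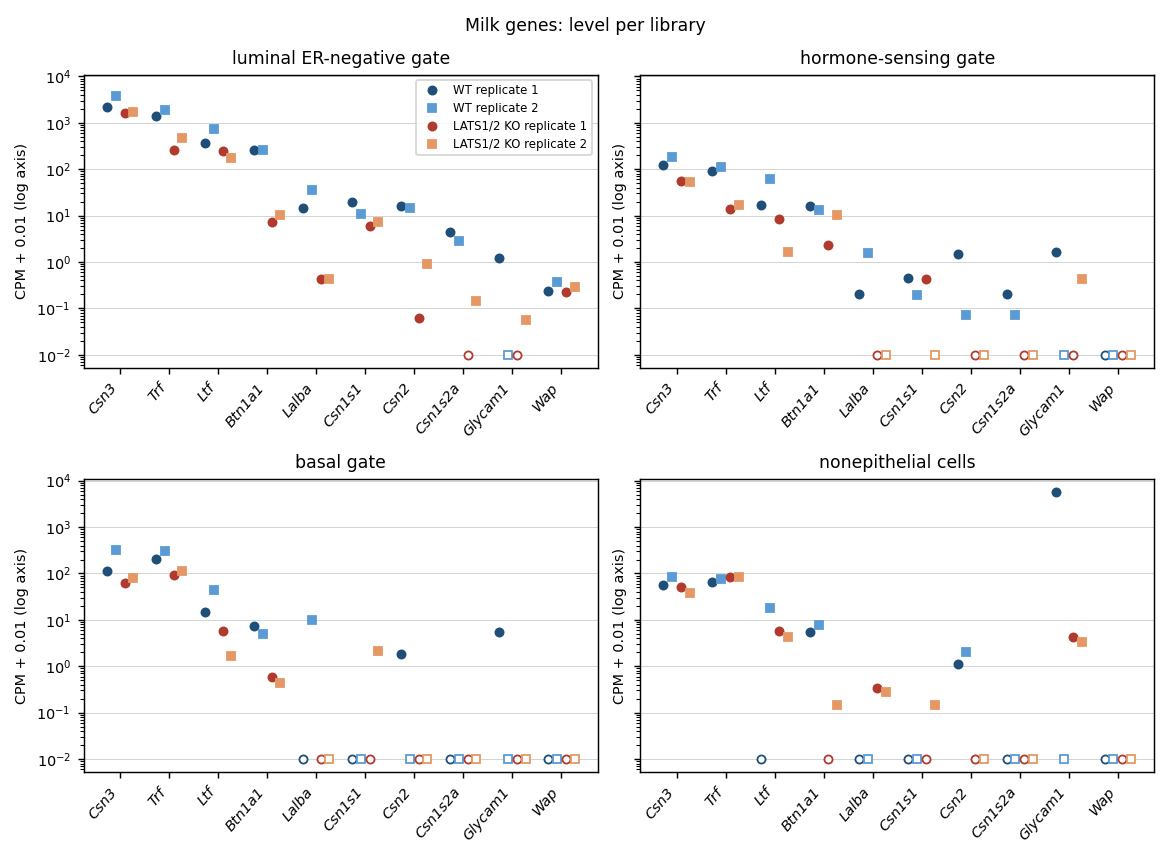
Level of each gene (CPM plus 0.01, log axis) in each library, for cells of the 3 epithelial gates and for all nonepithelial cells. Filled points have at least 1 UMI and open points have 0. In the luminal ER-negative gate *Btn1a1*, *Lalba*, *Csn2* and *Csn1s2a* sit far lower in both LATS1/2 KO libraries, and the point of *Glycam1* at 5657 CPM in nonepithelial cells of WT replicate 1 comes from 2 cells.

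The genes also differed in how their UMIs were spread over cells. In WT luminal ER-negative cells *Csn3* was found in 85.2% and 94.5% of cells, *Trf* in 91.4% and 95.7%, and *Btn1a1* in 68.7% and 68.5%. The 1% of cells with the most UMIs held only 7.72% and 6.16% of the *Csn3* UMIs, 7.24% and 6.32% of *Trf* and 7.91% and 7.61% of *Btn1a1*. *Ltf* was more uneven, with 24.7% and 20.6% in its top 1%. The rarer caseins were found in few cells: 2.90% and 2.86% of cells had a *Csn1s1* UMI, and the top 1% held 81.8% and 71.1% of them. For *Csn2* those top cells held 80.8% and 76.2%, for *Csn1s2a* 88.2% and 68.8%, and for *Lalba* 57.2% and 47.6%. The summed level of these genes thus rests on few cells. The exact binomial (Clopper-Pearson) 95% interval of a share of cells, which covers counting error only, reached at most 2.28 percentage points to either side in luminal ER-negative cells of any library. Cells carrying *Csn1s1*, *Csn1s2a*, *Csn2* and *Csn3* all together numbered 2 in each WT library.

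**Figure D2:**
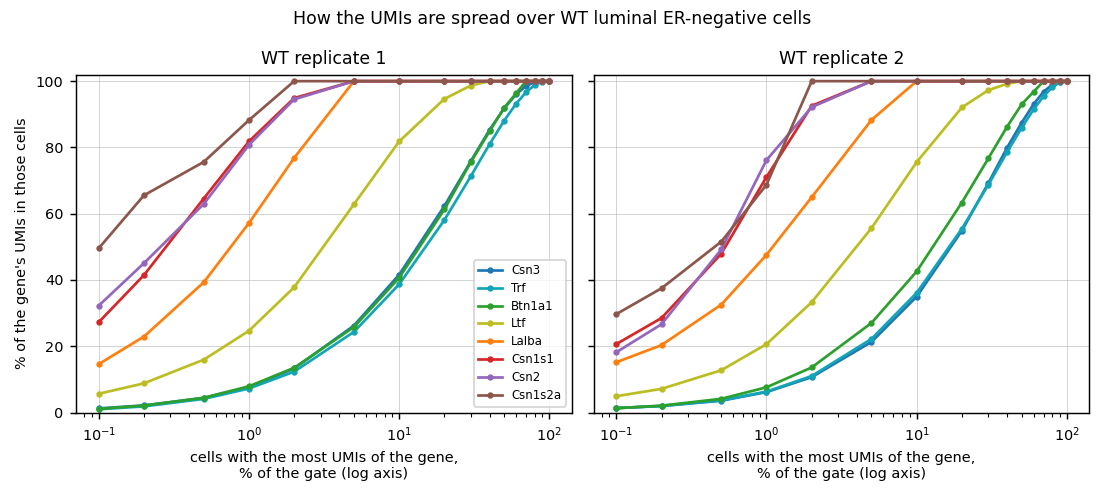
Share of a gene's UMIs (%) held by the cells with the most UMIs of that gene, against the share of luminal ER-negative cells (%, log axis), for each WT library. *Csn1s2a*, *Csn1s1* and *Csn2* reach 69 to 88% within the top 1% of cells, while *Csn3*, *Trf* and *Btn1a1* stay at 6 to 8%.

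The cells with the rarer caseins had more of some other milk genes and less *Ltf*. After each cell was thinned to 2000 UMIs, 88 WT replicate 1 and 51 WT replicate 2 cells of the gate had a UMI of *Csn1s1*, *Csn1s2a* or *Csn2*, which is 3.06% and 2.41% of the thinned cells. In these cells *Csn3* stood at 3898 and 6078 CPM, against 2180 and 3728 in the other cells of the gate. *Trf* stood at 2597 and 3304 CPM against 1345 and 1798, *Btn1a1* at 472 and 412 against 251 and 228, and *Lalba* at 62.5 and 176 against 14.0 and 38.3. *Ltf* went the other way, at 142 and 58.8 CPM against 379 and 730, from 25 and 6 UMIs. The cells were chosen by the caseins, so no test is given. They were also deeper before thinning, with medians of 9195 and 10222 UMIs against 7130.5 and 8216.

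In LATS1/2 KO mice milk transcripts were lower in luminal ER-negative cells. Of the 10 genes, 8 had enough counts to be tested, and all 8 were lower in LATS1/2 KO (edgeR quasi-likelihood test, Benjamini-Hochberg adjusted p under 0.05 over 13432 genes), where 28.7% of all genes tested were lower. The filter used the counts, and a gene that passed only because WT cells carry it could hardly have come out higher, so the count is a description. *Btn1a1*, *Lalba*, *Csn2* and *Csn1s2a* fell to a few percent of their WT level, *Trf*, *Ltf* and *Csn1s1* fell to between 22.6% and 42.7%, and *Csn3* kept 57.5% by CPM.

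*Btn1a1* was the most clear-cut. It stood at 258 and 255 CPM in WT and at 7.13 and 10.2 in LATS1/2 KO, a log2 fold change of -5.23 ± 0.17 (SE, n = 2 mice per group, edgeR adjusted p = 4.87e-06). The WT libraries lay far above both KO libraries and differed little from each other. At 2000 UMIs per cell, 36.1% and 33.9% of WT cells had a *Btn1a1* UMI, against 1.74% and 2.02% of KO cells. Nonepithelial cells, which should lack it, showed 0.521% and 0.980% in WT and 0 and 0.0821% in KO, where 0 of 497 cells allows a share of up to 0.604%.

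*Lalba* fell from 14.7 and 36.1 CPM to 0.422 and 0.412 (log2 fold change -6.25 ± 0.58, edgeR adjusted p = 0.000149). The KO levels rest on 8 and 9 UMIs. *Csn2*, β-casein, had 437 and 319 UMIs in WT (16.2 and 14.2 CPM) and 1 and 20 in KO (0.0528 and 0.915 CPM), with a log2 fold change of -5.23 ± 0.50 (edgeR adjusted p = 0.000166). *Csn1s2a* had 119 and 64 UMIs in WT and 0 and 3 in KO. At the floor of 3 UMIs, LATS1/2 KO replicate 1 could hold up to 0.158 CPM. The fitted log2 fold change of -5.87 ± 0.62 (edgeR adjusted p = 0.00026) depends on a prior count and is no bound. By the pooled counts the WT level was 50.3 times that of KO, with an exact 95% interval of 16.9 to 246 that covers counting error only. In none of these 3 genes did a KO library reach a WT library. Leaving out a library kept the calls but moved the values: without LATS1/2 KO replicate 1 the log2 fold change was -4.43 for *Csn2* and -5.06 for *Csn1s2a*, without replicate 2 it was -8.34 and -9.48, and without WT replicate 2 that of *Lalba* was -5.48.

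*Csn1s1* kept more of its level than *Csn2* and *Csn1s2a* of the casein cluster and less than *Csn3*. It stood at 19.5 and 10.8 CPM in WT and at 6.07 and 7.14 in LATS1/2 KO (log2 fold change -1.55 ± 0.28, edgeR adjusted p = 0.00278), and 115 and 156 UMIs remained. The groups did not overlap, but KO cells kept 42.7% of the WT level against 3.37% for *Csn2* and 1.99% for *Csn1s2a*. The difference between the genes was not tested. As in WT, a few KO cells held the UMIs, the top 1% carrying 82.6% and 87.2% of them. Of 13 and 21 thinned KO cells with a rarer casein, 13 and 19 had *Csn1s1*, 0 and 4 had *Csn2*, and 0 in either library had *Lalba* or *Btn1a1*. *Csn3* in those cells stood at 4346 and 5714 CPM, against 1851 and 1888 in the other KO cells.

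*Csn3* itself fell the least, from 2239 and 3809 CPM to 1636 and 1749 (log2 fold change -1.19 ± 0.23, edgeR adjusted p = 0.00379). The lower WT library lay above both KO libraries by less than the gap between the WT libraries. *Csn3* was still found in 86.1% and 81.4% of KO cells, so most of these cells continued to carry κ-casein transcripts. Those shares are not thinned. At 2000 UMIs per cell, among cells without a UMI of the rarer caseins, it was found in 75.6% and 88.5% of WT and 69.7% and 65.5% of KO cells. *Trf* fell from 1431 and 1886 CPM to 257 and 468 (log2 fold change -2.54 ± 0.28, edgeR adjusted p = 0.000296), and thinned cells with a UMI from 79.0% and 86.2% to 35.6% and 45.7%. *Ltf* fell from 376 and 725 CPM to 242 and 177 (log2 fold change -1.74 ± 0.30, edgeR adjusted p = 0.00239). At 2000 UMIs per cell *Ltf* was found in 21.3% and 29.3% of WT and 24.5% and 19.0% of KO cells, ranges that overlap, and the highest count in a cell was 321 and 334 UMIs in WT and 84 and 83 in KO. The share of cells with *Ltf* thus overlapped between the groups, while the highest counts per cell did not. *Wap*, with 14 UMIs in WT and 10 in KO over all cells of the gate, and *Glycam1* did not pass the count filter.

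**Figure D3:**
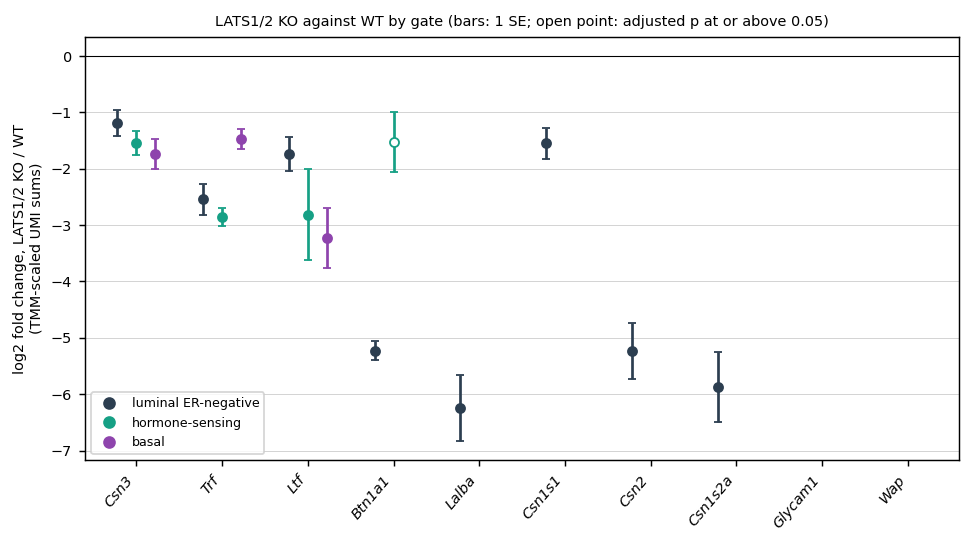
Log2 fold change of LATS1/2 KO against WT for each gene in the 3 epithelial gates (edgeR, TMM-scaled UMI sums, 2 mice per group). Bars are 1 SE, filled points have an adjusted p under 0.05 and genes without a point in a gate did not pass its count filter. *Lalba*, *Csn1s2a*, *Csn2* and *Btn1a1* lie below -5 in the luminal ER-negative gate, and *Csn3* lies between -1.19 and -1.74 in all 3.

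The size of these changes depends on scaling. TMM factors were 0.885 and 0.887 in WT and 1.12 and 1.14 in LATS1/2 KO. With plain totals, an alternative chosen after the data were seen, the median of all genes moved from 0.01 to 0.36 on the log2 scale, and the calls over all genes from 3856 lower and 4153 higher to 2282 lower (17.0%) and 6359 higher. All 8 milk genes stayed lower, with a log2 fold change of -0.84 for *Csn3* (edgeR adjusted p = 0.0149) and -4.88 for *Btn1a1*. Markers of other cell types moved too: the summed level of 6 fibroblast markers in the gate was 15.7 and 18.5 CPM in WT and 214 and 216 in KO, with none at 0, and that of 3 neutrophil markers, a cell type that stores lactoferrin, was 0.925 and 14.9 in WT and 13.8 and 32.9 in KO. The summed level of 7 macrophage markers was 11.2 and 13.6 CPM in WT, with *Adgre1* at 0, and 43.8 and 51.7 in KO. The cells of the gate also differed in the genes that define it: *Plet1* went from 4978 and 4635 CPM to 291 and 333 and *Elf5* from 232 and 306 to 111 and 131, while *Wfdc18* went from 2917 and 3679 to 5276 and 6558. *Krt14*, a keratin of basal cells, went from 4.07 and 2.80 CPM to 1169 and 821. The part of these shifts in the result was not tested. In bulk sums, fewer cells that carry a gene and less RNA per cell cannot be told apart, which the shares of cells above address only in part. The gate also held fewer cells in KO, 41.1% and 36.9% of kept cells against 61.0% and 61.7% in WT.

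The nonepithelial cells show how much of these levels free RNA from burst cells could give. Over all nonepithelial cells, 234 and 119 in WT and 545 and 1425 in LATS1/2 KO, *Csn3* stood at 57.0 and 84.7 CPM in WT and at 51.4 and 37.9 in KO. That is far under the luminal ER-negative level of either group. *Btn1a1* stood at 5.59 and 7.88 CPM there in WT and at 0 and 0.136 in KO, under the 7.13 and 10.2 CPM of KO luminal ER-negative cells. *Ltf* stood at 0, 17.7, 5.85 and 4.21 CPM in the 4 libraries. *Lalba* in KO was at 0.325 and 0.272 CPM in nonepithelial cells, from 1 and 2 UMIs, against 0.422 and 0.412 in the KO luminal ER-negative cells, so the little *Lalba* that remained was not detectably above free RNA. *Csn1s1* had 1 UMI in all nonepithelial cells and *Csn1s2a* 0, where 3 UMIs would be 3.35 and 5.91 CPM in WT and 0.976 and 0.408 in KO. For *Csn1s2a* in WT luminal ER-negative cells, the 4.40 CPM of replicate 1 lay above 3.35 and the 2.85 of replicate 2 under 5.91. This depth does not tell the classes apart in replicate 2.

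*Trf* was not spread over the nonepithelial cells as *Csn3* was. Its level over nonepithelial cells was 64.9 and 76.8 CPM in WT and 84.2 and 84.0 in LATS1/2 KO, while the luminal ER-negative level in KO was 22.6% of that in WT. The ratio of *Trf* to *Csn3* was set side by side for the cell types of a library, and the source of the *Trf* RNA was not tested. In KO luminal ER-negative cells there were 0.157 and 0.268 *Trf* UMIs per *Csn3* UMI. In KO macrophages, 166 and 289 cells, there were 4.94 and 6.54, with *Trf* at 292 and 265 CPM. The exact 95% intervals, which cover counting error only, were 3.59 to 6.91 and 4.90 to 8.87. Fibroblasts of the same libraries had 0.244 and 0.625, and endothelial cells 0.250 and 0.650. The 20 adipocyte-gated cells of LATS1/2 KO replicate 2 had *Trf* at 573 CPM and *Csn3* at 23.3. WT libraries held only 6 and 5 macrophages and 0 adipocyte-gated cells, so no level is given for them.

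**Figure D4:**
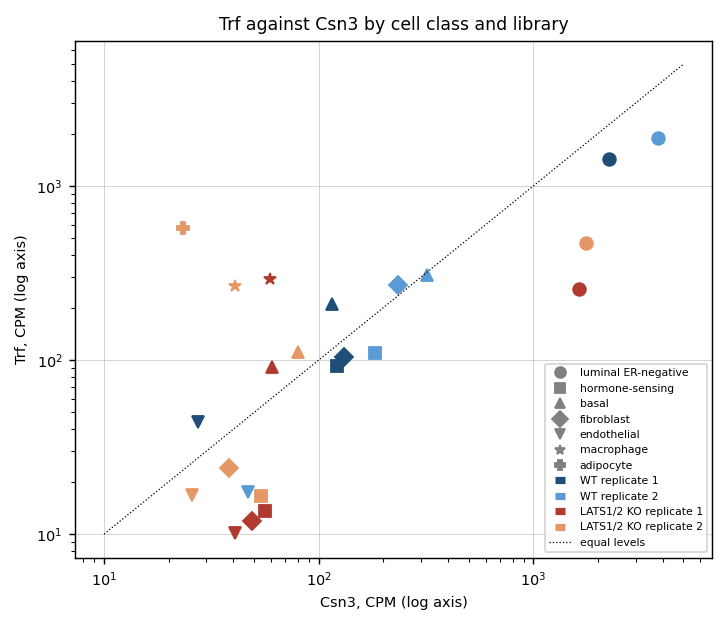
*Trf* against *Csn3* (CPM, both axes log) for each cell class and library with at least 20 cells, colour giving the library and symbol the class. The dotted line marks equal levels. Luminal ER-negative cells lie below it, with KO further below than WT. KO macrophages, the adipocyte-gated cells and 3 of the 4 basal libraries lie above it. Fibroblasts of WT replicate 2 (30 *Trf* and 26 *Csn3* UMIs) and endothelial cells of WT replicate 1 (8 and 5) do so too.

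*Glycam1* was nearly absent from epithelium. It encodes a mucin-like protein of milk and also a ligand for L-selectin made by high endothelial venules, the vessels through which lymphocytes enter lymph nodes. In WT replicate 1, 2 endothelial cells with 3434 and 1624 *Glycam1* UMIs held 98.8% of the 5120 in the library, and both carried UMIs of *Chst4*, *Fut7* and *Ccl21a*, genes of those venules. The other 31 endothelial cells of the library had 0. The 32 UMIs in luminal ER-negative cells (1.18 CPM) and 25 in hormone-sensing cells (1.60 CPM) of that library were few beside them, and WT replicate 2 had 0 in every gate. No difference in *Glycam1* between the genotypes can be read from these values.

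In WT, hormone-sensing cells carried much less of *Csn3*, *Trf*, *Ltf* and *Btn1a1*, the 4 milk genes that could be tested there, than luminal ER-negative cells did. In WT *Csn3* stood at 122 and 184 CPM and *Trf* at 92.3 and 110, above the sum of all nonepithelial cells of the same libraries, and in KO at 56.1 and 54.0 CPM and at 13.5 and 16.5. Of 4 milk genes tested, 3 were lower in KO (edgeR adjusted p under 0.05, where 16.5% of 12440 genes were lower). *Csn3* had a log2 fold change of -1.54 ± 0.21 (n = 2 mice per group, edgeR adjusted p = 0.00409) and *Trf* of -2.85 ± 0.16 (edgeR adjusted p = 0.000421). The KO levels of *Csn3* lay near the 51.4 and 37.9 CPM of nonepithelial cells, so the KO hormone-sensing cells held little beyond what free RNA could give. The WT levels were not above every nonepithelial class either: the 61 and 25 WT fibroblasts had *Csn3* at 131 and 234 CPM and *Trf* at 104 and 269, from 33 and 26 and from 26 and 30 UMIs. In KO, mean *Trf* was 17.9 CPM in fibroblasts and 13.5 in endothelial cells, beside 13.5 and 16.5 in hormone-sensing cells. The part of free RNA in the *Trf* change was not tested. At 2000 UMIs per cell the share of hormone-sensing cells with *Csn3* was 10.0% and 14.7% in WT and 9.64% and 9.76% in KO, against 5.21% and 5.88% and 9.26% and 7.06% in nonepithelial cells. The 7 macrophage markers summed to 9.58 and 9.93 CPM in WT and 47.5 and 47.4 in KO hormone-sensing cells, with none at 0. Genes that define this gate differed too: *Prlr* went from 3772 and 3075 CPM to 874 and 577. *Wnt4* went up, from 422 and 376 to 494 and 657 CPM. *Krt14* went from 5.94 and 2.82 to 1379 and 1929. The part of these shifts was not tested.

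*Ltf* in hormone-sensing cells went from 16.8 and 62.2 CPM to 8.40 and 1.65 (log2 fold change -2.81 ± 0.81, edgeR adjusted p = 0.0401). The groups did not overlap, but the KO values rest on 41 and 4 UMIs. They stood beside 5.85 and 4.21 CPM over all nonepithelial cells of the same libraries. The call was lost without LATS1/2 KO replicate 1 (-4.68, edgeR adjusted p = 0.0923) and without replicate 2 (-2.26, 0.160), and it moved to -1.63 without WT replicate 2 and to -3.47 without WT replicate 1. It was also lost without the deepest 5% of cells (-2.79, edgeR adjusted p = 0.0584), with a stricter gate (-2.81, 0.0539), with KO cells of 0 EYFP UMIs alone (-2.51, 0.0610) and with DESeq2 (-3.01, adjusted p = 0.0667). *Btn1a1* stood at 15.8 and 13.5 CPM in WT and at 2.25 and 10.3 in KO (log2 fold change -1.52 ± 0.53, edgeR adjusted p = 0.0703), which did not pass. KO replicate 2 was close to WT and replicate 1 was not, from 25 and 11 UMIs in that order. Of those UMIs, 20 and 8 came from the 89 and 107 EYFP-positive cells of the gate. *Btn1a1* did pass without LATS1/2 KO replicate 2 (-2.73, edgeR adjusted p = 0.00871) and without WT replicate 2 (-1.66, 0.0437), and stood at -0.61 (0.139) without LATS1/2 KO replicate 1. It also passed with the replicate number as a block (-1.56, edgeR adjusted p = 0.0481) and with KO cells of 0 EYFP UMIs alone (-3.05, 0.0075).

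Measured against the luminal ER-negative gate in 1 model with the mouse as block, the change of *Btn1a1* was smaller in hormone-sensing cells, by 3.72 ± 0.45 on the log2 scale (edgeR adjusted p = 0.00104, where 21.9% of 13982 genes differed in either direction). The other genes tested in both gates did not pass: the difference was -0.37 ± 0.13 for *Csn3* (edgeR adjusted p = 0.0892), -0.20 ± 0.19 for *Trf* (0.515) and -0.96 ± 0.47 for *Ltf* (0.183). The mean WT level of *Btn1a1* in hormone-sensing cells was 5.71% of that in luminal ER-negative cells. Its WT hormone-sensing levels, 15.8 and 13.5 CPM from 467 UMIs in all, stood beside 5.59 and 7.88 over all nonepithelial cells. WT fibroblasts had a mean of 17.5 (SD 13.4), from 61 and 25 cells with 251160 and 111331 UMIs of all genes. In KO, 2.25 and 10.3 CPM stood beside 0 and 0.136 over all nonepithelial cells. The part of free RNA in this difference was not tested.

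In basal cells, 149 and 137 in WT and 278 and 357 in LATS1/2 KO, 3 milk genes passed the filter and all 3 were lower in KO (15.7% of 8829 genes were lower). With plain totals in place of TMM the 3 stayed lower, while the calls over all genes went from 1384 lower and 1427 higher to 1086 and 1729 and the median gene stood at 0.12 on the log2 scale. The 6 fibroblast markers summed to 137 and 144 CPM in WT, with *Lum* at 0, and to 296 and 319 in KO basal cells, and the 7 macrophage markers to 38.4 and 38.1 against 51.3 and 70.6. Genes that define the gate differed too: *Oxtr* went from 292 and 296 CPM to 21.4 and 32.6 and *Myh11* from 473 and 669 to 175 and 207. *Krt5* went up, from 815 and 847 to 1271 and 1353 CPM. *Epcam*, an epithelial marker, went from 597 and 457 to 1478 and 1329. The part of these shifts was not tested. *Trf* stood at 210 and 306 CPM in WT and at 91.3 and 111 in KO (log2 fold change -1.47 ± 0.18, edgeR adjusted p = 1.66e-06). It was found in 43.0% and 46.0% of WT and 37.1% and 42.0% of KO basal cells, and stood above *Csn3* in 3 of the 4 libraries, with 1.83, 0.964, 1.50 and 1.38 UMIs per *Csn3* UMI against 0.639, 0.495, 0.157 and 0.268 in luminal ER-negative cells of the same libraries. Basal *Csn3* went from 115 and 318 CPM to 60.9 and 80.3 (log2 fold change -1.74 ± 0.27, edgeR adjusted p = 2.86e-05). A few cells carried it, the top 1% holding 61.9% and 56.8% of the WT UMIs, and without the deepest 5% of cells the log2 fold change was -0.47 (edgeR adjusted p = 0.319). Without WT replicate 2 it was -0.83 (edgeR adjusted p = 0.00669), and with DESeq2 the adjusted p was 0.0724. *Ltf* had 8 and 27 UMIs in WT and 10 and 4 in KO, 14.6 and 44.7 against 5.64 and 1.69 CPM (log2 fold change -3.23 ± 0.54, edgeR adjusted p = 7.27e-05), and did not pass the filter without the deepest cells. Its log2 fold change was -2.20 without WT replicate 2, and -4.18 and -2.52 without LATS1/2 KO replicates 1 and 2. Over all nonepithelial cells of the KO libraries, *Trf* stood at 84.2 and 84.0 CPM, *Csn3* at 51.4 and 37.9 and *Ltf* at 5.85 and 4.21. In WT these levels were 64.9 and 76.8, 57.0 and 84.7, and 0 and 17.7 CPM. WT fibroblasts had a mean of 182 CPM for *Csn3* and 186 for *Trf*. KO basal *Trf* thus lay close to the pooled nonepithelial level, which includes macrophages with a mean of 278 CPM. It lay above the means of KO fibroblasts (17.9 CPM) and KO endothelial cells (13.5). The part of free RNA was not tested.

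Against the luminal ER-negative gate, the change of *Trf* was smaller in basal cells by 1.29 ± 0.15 on the log2 scale (edgeR adjusted p = 3.61e-10), where 21.3% of 13513 genes differed in either direction and the median gene by 0.13. *Ltf* had a difference of -1.28 ± 0.40 (edgeR adjusted p = 0.0174), with the larger fall in basal cells, and did not pass with a stricter gate (-0.24, edgeR adjusted p = 0.847) or without the mouse as block (-1.34, 0.344). The difference for *Csn3*, -0.31 ± 0.15, did not pass (edgeR adjusted p = 0.155).

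EYFP marks cells in which Cre removed a stop cassette. In LATS1/2 KO, 328 and 405 luminal ER-negative cells had at least 1 EYFP UMI (17.8% and 20.8%), against 10 and 9 in WT, where no Cre is present. A cell with 0 EYFP UMIs may still be recombined, since a low transcript is often missed. Within the KO libraries and with the mouse as block, 4 of 5 milk genes tested were lower in EYFP-positive cells than in cells with 0 EYFP UMIs (18.0% of 12300 genes were lower).

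*Csn3* stood at 920 and 890 CPM in EYFP-positive and at 1913 and 2156 in EYFP = 0 cells (log2 fold change -1.19 ± 0.06, n = 2 mice, edgeR adjusted p = 1.21e-10). *Trf* stood at 135 and 207 against 305 and 592 CPM (log2 fold change -1.38 ± 0.07, edgeR adjusted p = 2.82e-10), and *Ltf* at 120 and 128 against 289 and 201 (log2 fold change -0.96 ± 0.09, edgeR adjusted p = 2.87e-07). In all 3 genes the EYFP-positive cells of both mice lay below the EYFP = 0 cells of both. *Csn1s1* had 19 and 5 UMIs in EYFP-positive and 96 and 151 in EYFP = 0 cells (log2 fold change -2.16 ± 0.39, edgeR adjusted p = 0.000329). Without the mouse as block only *Csn3* passed (edgeR adjusted p = 0.0296, against 0.0692 for *Trf*, 0.0510 for *Ltf* and 0.0920 for *Csn1s1*), and the calls over all genes went from 4459 to 206. With DESeq2 *Csn1s1* did not pass (adjusted p = 0.258).

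*Btn1a1* did not follow them. It stood at 8.69 and 11.8 CPM in EYFP-positive and at 6.52 and 9.51 in EYFP = 0 cells (log2 fold change 0.33 ± 0.18, edgeR adjusted p = 0.156), and both values lay far under the 258 and 255 CPM of WT. With both luminal gates together the difference was 0.47 (edgeR adjusted p = 0.0425). *Lalba*, which was too low to be tested, had 1 and 1 UMIs in EYFP-positive cells (0.189 and 0.142 CPM, under the floor of 3 UMIs) and 7 and 8 in EYFP = 0 cells (0.513 and 0.539 CPM). The EYFP = 0 cells of KO were set against WT as well. Alone against WT, a comparison chosen after the data were seen, they had the same 8 milk genes lower, where 26.7% of 13184 genes were lower. *Csn3* at 1913 and 2156 CPM was close to the lower WT library, and *Btn1a1* and *Lalba* were not. EYFP-positive cells were deeper, with medians of 14141.5 and 15221 UMIs against 7123 and 7461. With cells thinned to 2000 UMIs *Csn3*, *Trf* and *Ltf* kept their calls and *Csn1s1* did not pass the filter.

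**Figure D5:**
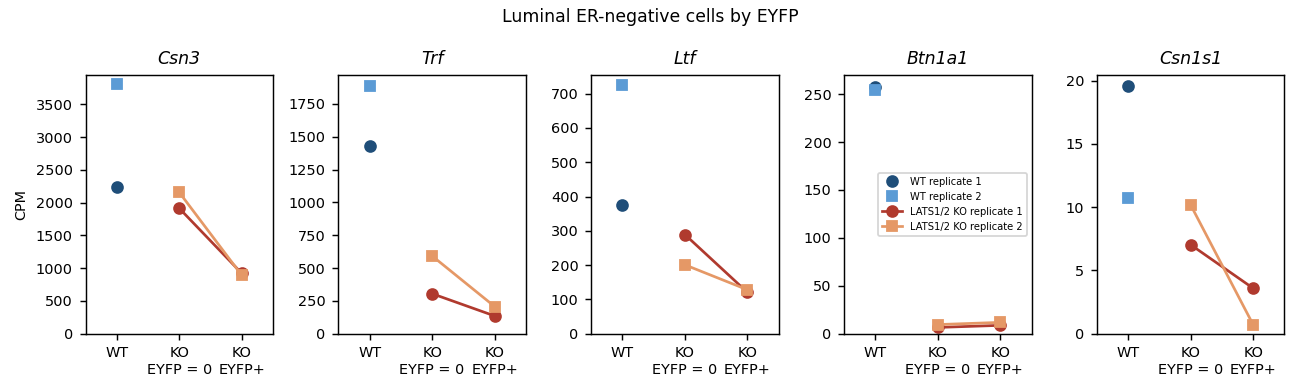
Level (CPM) of 5 milk genes in luminal ER-negative cells of WT, of LATS1/2 KO cells with 0 EYFP UMIs and of EYFP-positive LATS1/2 KO cells, with a line joining the cells of 1 mouse. *Csn3*, *Trf*, *Ltf* and *Csn1s1* step down from EYFP = 0 to EYFP-positive cells in both mice, while *Btn1a1* is at 6.52 to 11.8 CPM in all KO cells and at 255 to 258 in WT.

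In hormone-sensing cells 107 and 89 were EYFP-positive (21.1% and 42.8%). *Trf* and *Csn3* were the 2 milk genes tested and both were lower in EYFP-positive cells (15.9% of 8960 genes were lower). *Trf* had 56 and 28 UMIs in EYFP = 0 cells, 16.2 and 24.1 CPM, and 10 and 12 UMIs in EYFP-positive cells, at most 9.47 CPM (log2 fold change -1.33 ± 0.36, n = 2 mice, edgeR adjusted p = 0.00229). *Csn3* stood at 43.4 and 44.2 against 61.4 and 64.6 CPM (log2 fold change -0.58 ± 0.18, edgeR adjusted p = 0.00896), and the EYFP-positive values lay within the 37.9 to 51.4 CPM of KO nonepithelial cells. With DESeq2 neither gene passed (adjusted p = 0.541 for *Csn3* and 0.376 for *Trf*). With cells thinned to 2000 UMIs *Csn3* alone could be tested and its sign changed (0.19, edgeR adjusted p = 0.790), and with a stricter gate it stood at -0.29 (edgeR adjusted p = 0.548). With at least 2 EYFP UMIs required of a positive cell the differences were larger, -1.57 for *Csn3* (edgeR adjusted p = 6.41e-07) and -2.11 for *Trf* (0.000169).

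The 1523 KO epithelial cells of no gate had low milk transcripts as well. *Csn3* stood at 132 and 115 CPM, *Trf* at 32.3 and 61.8, *Ltf* at 13.9 and 6.42 and *Btn1a1* at 7.04 and 8.37. The cells of no gate in WT had 881 and 1316 CPM of *Csn3* and 101 and 101 of *Btn1a1*. EYFP was found in 34.1% and 47.1% of the KO cells of no gate. Adding them to the luminal ER-negative gate kept all 8 milk genes lower.

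Other genes of the pathway moved in both directions in luminal ER-negative cells. Among 16 tested genes of prolactin and STAT5 signalling, leaving out 2 that mark a gate, 9 were lower and 3 higher, with a median log2 fold change of -0.51 against 0.01 over all genes, where 28.7% of genes were lower and 30.9% higher. *Erbb4*, a receptor that activates STAT5A, fell from 11.3 and 10.3 to 2.27 and 1.33 CPM (log2 fold change -2.95 ± 0.26, edgeR adjusted p = 0.00011). *Cebpb*, a transcription factor needed for alveolar differentiation, fell by 2.10 ± 0.18 on the log2 scale (edgeR adjusted p = 0.000114), from 1503 and 1045 to 397 and 360 CPM. *Cav1*, caveolin-1, which restrains JAK2 signalling in the gland, rose from 1.52 and 0.979 to 101 and 92.1 CPM (log2 fold change 5.90 ± 0.19, edgeR adjusted p = 4.7e-06).

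Milk fat and lactose genes moved in both directions. Of 17 tested, 3 were lower and 9 higher, with a median of 0.33. *Xdh*, xanthine oxidoreductase, a partner of butyrophilin in the milk fat globule membrane, fell from 50.3 and 43.5 to 16.2 and 18.4 CPM (log2 fold change -1.79 ± 0.12, edgeR adjusted p = 3.8e-05). *Plin2*, which coats lipid droplets, rose from 151 and 122 to 616 and 443 CPM (1.61 ± 0.19, edgeR adjusted p = 0.000376), and *Cd36*, a fatty acid transporter, from 0.481 and 0.667 to 4.65 and 5.44 CPM (2.79 ± 0.29, edgeR adjusted p = 0.000219). Of 15 tested genes for other secreted or membrane proteins of milk, 8 were lower and 3 higher, with a median of -1.42. The 3 that rose were *Saa3*, an acute-phase protein, from 0 and 3 UMIs to 85 and 105, *Pthlh*, parathyroid hormone-related protein, from 0.148 and 0.178 to 9.03 and 3.29 CPM, and *Wfdc2*, a secreted protein with the domain type of *Wap*, from 70.4 and 92.1 to 1440 and 1118 CPM (edgeR adjusted p = 0.000211, 0.000879 and 1.85e-05). In hormone-sensing cells where 16.5% of genes were lower and 18.2% higher, the 3 lists in the same order had 3 lower and 2 higher of 15, 3 and 3 of 16, and 3 and 3 of 14. In basal cells, where 15.7% were lower and 16.2% higher, they had 7 lower and 1 higher of 14, 1 and 3 of 14, and 3 and 3 of 9. Between EYFP-positive and EYFP = 0 luminal ER-negative cells, where 18.0% were lower and 18.3% higher, they had 7 lower and 2 higher of 16, 7 and 3 of 17, and 8 and 2 of 13.

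Over the 12 sums of 3 gates and 4 libraries, the genes whose log2 CPM followed the summed casein level most closely were *Kit*, *Elf5*, *Scara5*, *Muc1* and *Aldh1a3*, with Pearson's r of 0.978, 0.977, 0.975, 0.974 and 0.973 among 12819 genes. *Kit*, *Elf5* and *Aldh1a3* define the luminal ER-negative gate, the 12 sums share 4 libraries, and the sums also separate by gate.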

How the data were processed

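Single live mammary cells of 4 mice were profiled with 10x Chromium 3′ chemistry. The authors deposited 1 filtered matrix of UMI counts per library, aligned to mm10. The submitters' processing notes name Cell Ranger 3.1.0 and the matrix headers 6.1.2. Cells with over 500 genes and under 20% mitochondrial UMIs were kept. A cell was epithelial or not by a log2 lead of 2 in marker level, and was put in an epithelial gate when its mean scaled marker score led both others by 0.1 with at least 2 markers found.

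Deposited counts were summed per library and gate, and tested with edgeR 4.0.16 (R 4.3.3, quasi-likelihood F test, TMM, filterByExpr, Benjamini-Hochberg over all genes tested, threshold 0.05), with DESeq2 1.42.0 as an alternative. EYFP comparisons and comparisons between gates had the mouse as block. The fits were tested on simulated data. All 10 genes are described in every comparison. Pathway genes are named where their fold change was among the 3 largest of a list and past the threshold. Members and lists were chosen with earlier results of these data known. Replicates are separate mice, and a replicate number did not pair the samples. CPM values are without TMM.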

Additional observations from a re-analysis of the deposited data

Results flagged for a closer look

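A test of the difference between gates, with the mouse as block, singled out 3 milk genes, whose values are given without an explanation. The log2 fold change of *Btn1a1* between LATS1/2 KO and WT was higher in hormone-sensing than in luminal ER-negative cells by 3.72 ± 0.45 (edgeR adjusted p = 0.00104), from -1.52 and -5.23 in the separate comparisons. That of *Trf* was higher in basal than in luminal ER-negative cells by 1.29 ± 0.15 (edgeR adjusted p = 3.61e-10), from -1.47 and -2.54. That of *Ltf* was lower in basal than in luminal ER-negative cells, with a difference of -1.28 ± 0.40 (edgeR adjusted p = 0.0174), from -3.23 and -1.74, and this one did not pass with a stricter gate. With 2 mice per group no library could be tested as an outlier. The KO basal levels, 91.3 and 111 CPM for *Trf* and 5.64 and 1.69 for *Ltf*, stood beside 84.2 and 84.0 and 5.85 and 4.21 CPM in KO nonepithelial cells. By class, mean *Trf* in KO was 278 CPM in macrophages, 17.9 in fibroblasts and 13.5 in endothelial cells. The WT hormone-sensing level of *Btn1a1*, 15.8 and 13.5 CPM, stood beside 5.59 and 7.88 CPM over all WT nonepithelial cells. WT fibroblasts had a mean of 17.5 (SD 13.4), from 61 and 25 cells with 251160 and 111331 UMIs of all genes. The part of free RNA in these differences was not tested.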

How the results depend on the processing

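All 8 milk genes tested in luminal ER-negative cells were lower and past the threshold under each of 18 alternatives, which include RLE size factors, DESeq2, plain totals, thinned sums, a stricter gate, a 10% mitochondrial limit and leaving out each library. Leaving out 1 library gave 8 to 9 genes lower there, 2 to 4 in hormone-sensing and 3 in basal cells each time. The ninth gene was *Glycam1*, which also came out lower (edgeR adjusted p = 4.99e-05) with no low-count filter and rests on WT replicate 1. In basal cells 5 milk genes were lower with no low-count filter and 1 without the 5% deepest cells. With no replicate block, that is without the mouse as block, 1 gene was lower in EYFP-positive luminal ER-negative cells and 1 differed between basal and luminal ER-negative cells, and a stricter gate also left 1 there. In EYFP-positive hormone-sensing cells 0 passed with DESeq2, with thinned cells and with a stricter gate, where 825, 664 and 1275 of all genes were called against 2930. With thinned cells *Csn3* reversed to 0.19. Over all genes the EYFP comparison in luminal ER-negative cells gave 1236 calls with DESeq2, 1767 with thinned cells and 2838 with a stricter gate against 4459. The comparison of genotypes in basal cells gave 1256 with DESeq2 against 2811. Between genotypes, whose libraries share only a replicate number, the replicate block gave 8, 4 and 3 lower genes in the 3 gates. Deviations of same-numbered libraries correlated at 0.0186, 0.0137 and 0.00494. Leaving out a library was not run for the EYFP comparisons and comparisons between gates. Plain totals, the deepest cells, cells of no gate, the gate without *Wfdc18* and *Elf5*, and the EYFP classes set against WT were chosen after seeing the data. Depth limits *Wap*, *Lalba* and *Csn1s2a* in KO, and all rarer caseins outside the luminal ER-negative gate.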

Other observations

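Among LATS1/2 KO epithelial cells that met no gate, 273 and 340 were EYFP-positive and 528 and 382 had 0 EYFP UMIs. *Csn3*, κ-casein, stood at 81.7 and 82.4 CPM in the EYFP-positive and at 178 and 177 in the other cells. *Trf*, transferrin, stood at 11.5 and 35.4 CPM against 51.2 and 113. *Ltf*, lactoferrin, stood at 4.58 and 5.55 CPM against 22.5 and 8.10. *Btn1a1*, butyrophilin, stood at 6.62 and 6.94 CPM against 7.42 and 11.1. For each of these 4 genes the EYFP-positive cells of either mouse were lower than the cells of the same mouse with 0 EYFP UMIs. These cells were not tested alone, so no p is given. Added to the luminal ER-negative cells, an alternative chosen after seeing the data, they left *Csn3* at -1.61, *Trf* at -1.79, *Ltf* at -1.43 and *Btn1a1* at 0.07 on the log2 scale (edgeR adjusted p = 7.67e-07, 8.67e-07, 3.09e-06 and 0.741).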
